A study of Mus musculus with 6 samples.

Results

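Genes named Ccdc carry a coiled-coil domain, a stretch in which helices wrap around each other, and otherwise have little in common. They were chosen here by name alone, as all probes of the Illumina MouseWG-6 v2.0 BeadChip whose annotated gene symbol is Ccdc followed by a number. This gave 202 probes of 118 genes, out of 45281 probes on the array, of which 34885 had 1 gene symbol. Testis RNA was hybridised with 1 array per mouse, in C57Bl/6 males aged 4 months. The 3 mice numbered 1, 2 and 5 in the labels had received a standard diet (SD), and the 3 mice numbered 3, 4 and 6 a high-fat diet, which the study calls Western-like (WD) and enriched with sucrose and butter. The mice to be arrayed were drawn at random, but those with the strongest response to the diet had been set aside, as the study describes. RNA of the whole organ was used, so that fewer cells of a type and less RNA per cell cannot be told apart.

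A coiled coil lets a protein form long rods and pairs, and many proteins of cilia, centrioles and flagella are built this way. In the testis, germ cells pass through meiosis and then, as spermatids, grow an acrosome, shape the nucleus with a microtubule skirt called the manchette and assemble a flagellum. Its core, the axoneme, is a motile cilium with dynein motors. Ccdc proteins are known among the rulers, docking factors and linkers that place these motors, and loss of several of them causes immotile cilia or male sterility. Other Ccdc proteins act in splicing, in mitochondria, in membrane traffic or outside the cell. Genes with these roles were grouped in 8 lists, which were chosen with earlier results of these arrays known.

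Promoter windows were examined because ciliary genes are often driven through the X-box, the site of RFX factors, and spermatid genes through the cAMP response element (CRE). Windows from 250 bases before to 50 bases after the start site, taken from RefSeq on GRCm38.p6, matched 97 of the 118 genes (122 windows). A relaxed X-box was searched, GTNNCCN followed by its reverse complement NGGNNAC, and the CRE was searched as TGACGTCA. Both are palindromes, so 1 search covered both strands, and the matches shown did not overlap. The X-box letters were in 6 of 122 Ccdc windows (4.92%), against 1.88% of all 32851 windows. The CRE letters were in 3 of 122 (2.46%), against 1.79%. The matches of 4 genes with detected probes are shown from 5′ to 3′ on the strand of the gene, with the match in capitals and 15 bases around it.
Ccdc151, chr9:22002640-22002683, minus strand: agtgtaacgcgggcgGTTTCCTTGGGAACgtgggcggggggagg
Ccdc189, chr7:127588231-127588274, minus strand: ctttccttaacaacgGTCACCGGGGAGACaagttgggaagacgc
Ccdc175, chr12:72185015-72185058, minus strand: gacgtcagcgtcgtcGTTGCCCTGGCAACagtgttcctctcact
Ccdc173, chr2:69789560-69789597, minus strand: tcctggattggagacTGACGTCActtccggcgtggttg
The match in Ccdc151, an outer dynein arm docking factor, began 34 bases before the start site, and that in Ccdc175 14 bases before it. The match in Ccdc173, a protein inside the axonemal microtubules, was the CRE and began 96 bases before the start site. The other X-box matches were in Ccdc13, Ccdc47 and Ccdc184, and Ccdc13 had no detected probe. The other CRE matches were in the splicing factor Ccdc130, 41 bases after the start site, and in the nucleolar protein Ccdc86, 23 bases before it. Such a match is a description of letters and not of a bound site.

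Ccdc probes were frequently detected in testis. A detection p under 0.05 in 3 or more mice of either diet made a probe count as detected. By this measure 140 of the 202 Ccdc probes (69.3%) were detected, against 43.6% of all probes and 47.8% of probes with a gene symbol. On all 6 arrays 127 (62.9%) were detected, against 36.2% of all probes. The number detected per mouse was 137, 133 and 143 for SD mice 1, 2 and 5 and was 137, 144 and 139 for WD mice 3, 4 and 6, so that the diets overlapped. The share was close to that of probes for axonemal dyneins, tektins and Cfap proteins (67.9% of 81), above that of kinesins (54.9% of 82) and below that of the testis-named Spata and Tex genes (85.1% of 94). These shares were not tested against each other.

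**Figure D1:**
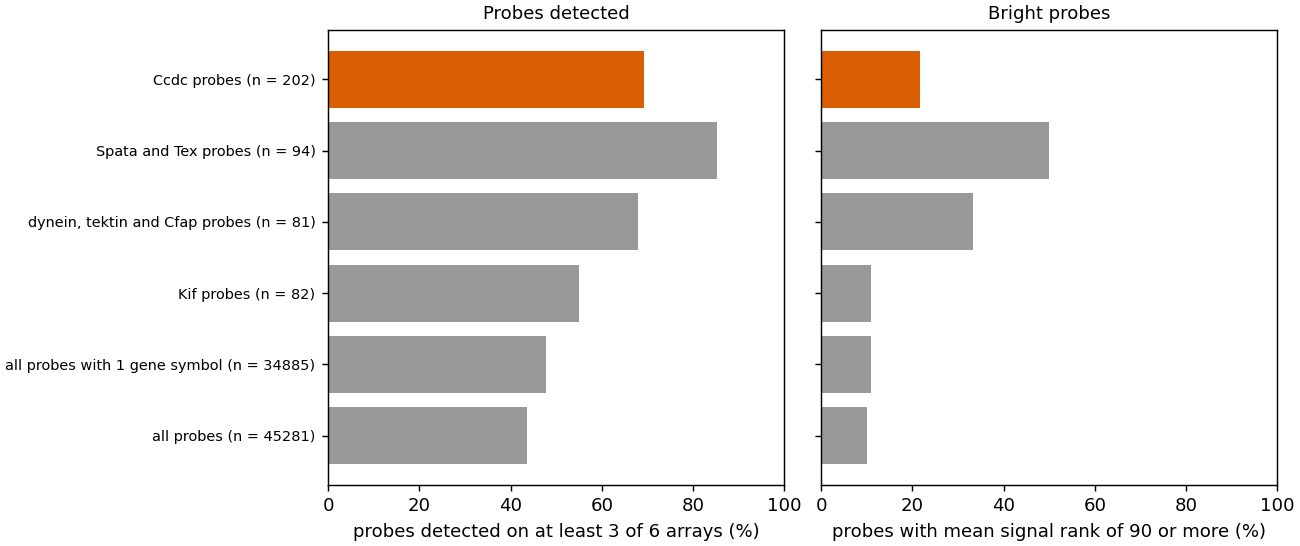
Percent of probes detected on at least 3 of 6 arrays (left) and percent with a mean signal rank of 90 or more (right), for each gene family and for all probes, with the number of probes in brackets. The Ccdc bars reach 69.3% and 21.8%, against 43.6% and 9.96% for all probes.

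Of the 118 genes 99 had a detected probe and 19 had none, and in 17 of these 19 every probe was undetected on every array. Among the genes without a detected probe were Ccdc80, a secreted matrix protein, Ccdc78, a factor of centriole amplification in multiciliated cells, Ccdc115, a factor of proton pump assembly, Ccdc14, a protein of centrioles, and Ccdc85a. Undetected refers to these probes and not to the genes. Of 57 genes with several probes, 26 had both detected and undetected ones.

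The raw signals of Ccdc probes lay high on each array. With every probe ranked by raw intensity from 0 to 100 within an array, the median Ccdc probe had a mean rank of 74.5, against 44.9 for all probes, and this median lay between 74.0 and 75.1 in the 6 mice. A mean rank of 90 or more was reached by 44 probes (21.8%), against 9.96% of all probes. This share was 50% for Spata and Tex probes, 33.3% for those of dyneins, tektins and Cfap proteins and 11.0% for kinesins. The median ranks of these families were 89.9, 77.2 and 57.3, so the Ccdc probes were not the brightest family. Probes differ in how strongly they bind, so a rank describes a signal and not an amount of RNA. After normalization all values below are on the log2 scale.

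The 10 genes with the brightest probes were Ccdc92, Ccdc181, Ccdc89, Ccdc113, Ccdc110, Ccdc54, Ccdc30, Ccdc65, Ccdc136 and Ccdc192. Ccdc92, a protein of centrioles, had the brightest probe, at a mean rank of 99.4 and a raw intensity between 11920 and 15620 in the 6 mice. Its normalized level was 13.65, 13.69 and 13.81 in SD mice 1, 2 and 5 and was 13.79, 13.55 and 13.84 in WD mice 3, 4 and 6. Ccdc181, a microtubule-binding protein of the sperm flagellum, had its brighter probe at 13.50, 13.71 and 13.80 in SD and at 13.56, 13.76 and 13.68 in WD. In both genes the diets overlapped at this probe. Ccdc110, known as a cancer-testis antigen, was at 12.88 ± 0.108 in SD and 12.95 ± 0.0760 in WD (mean ± standard deviation of 3 mice, as in all such values). The other brightest probes of these genes had mean levels between 12.44 and 13.16.

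Genes of the motile cilium and sperm axoneme formed the largest of the 8 lists. It held 23 names, of which 12 were on the array as Ccdc and 9 under newer names, and 20 of these 21 genes were detected, all but Ccdc78. At the brightest probe of each detected gene the levels ran from 6.28 to 13.67. Among the parts that link and regulate the dyneins, Ccdc65, a subunit of the nexin-dynein regulatory complex, had 2 probes at 12.69 and 12.49. Ccdc113, a ciliary protein, was at 12.97 and its partner Ccdc96 at 9.58. Levels are those of single probes and were not set against each other. The ruler protein Ccdc39 was at 11.78, 11.73 and 11.77 in SD mice 1, 2 and 5 and at 11.54, 11.85 and 11.81 in WD mice 3, 4 and 6. Its partner in the ruler, Ccdc40, was at 7.77, 8.0 and 8.26 in SD and at 7.73, 8.21 and 8.57 in WD. The values of both overlapped between the diets.

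The docking factors of the outer dynein arm, Ccdc114 and Ccdc151, had their brightest probes at 10.23 and 9.14, and Ccdc103, needed to attach dynein arms, was at 9.90. Inside the microtubules, Ccdc173 was at 10.81 and the tektin-like Ccdc105 at 10.23. Of the 20 detected genes of the list 8 were higher and 12 lower in WD, 0 had an unadjusted p under 0.05, and the median difference of WD minus SD was -0.02. Among the renamed genes, Cfap45 (formerly Ccdc19) was at 13.00 and Drc1 (formerly Ccdc164), another subunit of the nexin-dynein complex, at 11.19.

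**Figure D2:**
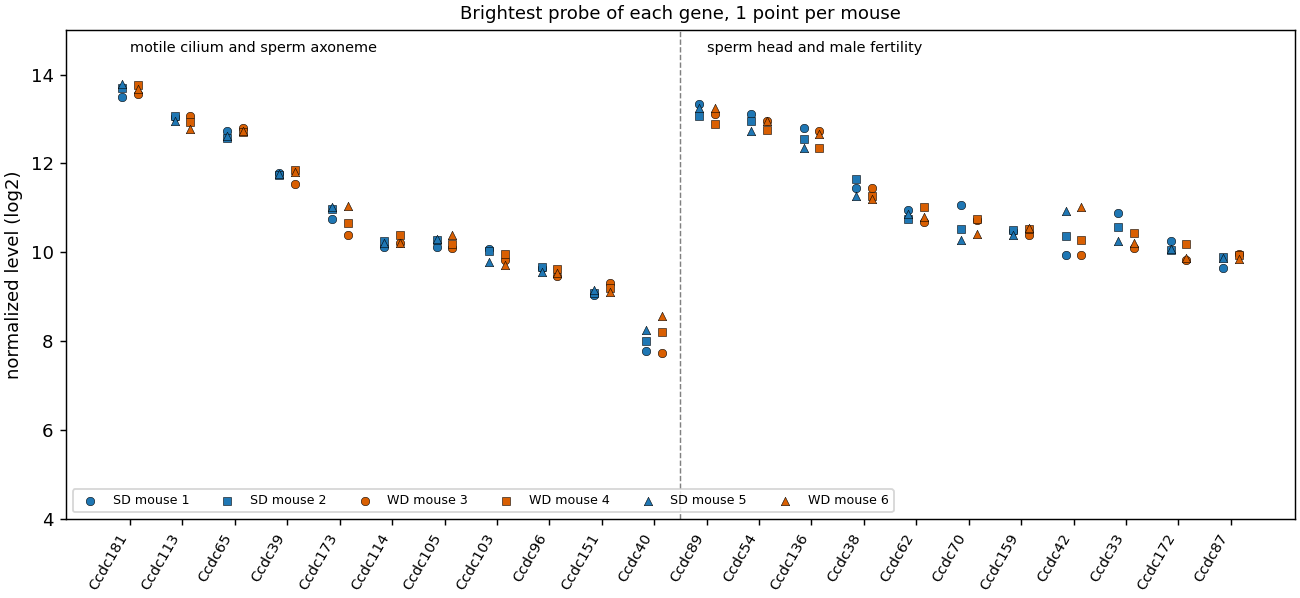
Normalized log2 level of the brightest probe of each detected Ccdc gene of the axoneme list (left) and of the sperm head and fertility list (right), with 1 point per mouse, blue for SD and orange for WD. Levels lie mostly between 9 and 14, the diets overlap at every gene shown, and at Ccdc42 the triangles of SD mouse 5 and WD mouse 6 stand above the other 4 mice.

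All 11 genes of the list for the sperm head, acrosome, manchette and male fertility that were on the array were detected, with levels from 9.86 to 13.16. Ccdc136, needed for the acrosome, was at 12.79, 12.56 and 12.34 in SD mice 1, 2 and 5 and at 12.74, 12.35 and 12.66 in WD mice 3, 4 and 6. Ccdc62, also of the acrosome, was at 10.84, Ccdc38, of the flagellum, at 11.38 and Ccdc87, of the acrosome reaction, at 9.86. Ccdc42, a protein of the manchette and of the coupling of head and tail, was at 9.93, 10.36 and 10.92 in SD and at 9.93, 10.28 and 11.03 in WD, so that the range within each diet was wider than the difference of 0.01 between them. In this list 5 genes were higher and 6 lower in WD, with 0 at an unadjusted p under 0.05 and a median of -0.03. The meiosis list held 3 names, and both genes found on the array had been renamed: Kash5 (formerly Ccdc155), which ties telomeres to dynein, was at 10.50, and Terb1 (formerly Ccdc79), a telomere protein of meiosis, at 9.32.

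The other lists hold roles outside the flagellum. The centrosome, centriole and spindle list had 16 of 19 genes detected, with a median level of 8.41, and 7 were higher and 9 lower in WD (median difference -0.07). The splicing, ribosome and chromatin list had 14 of 14 detected at a median level of 9.22, with 7 higher and 7 lower (median 0.02). In it, Ccdc130, a splicing factor, was at 12.21 and the nucleolar protein Ccdc86 at 10.71. The list had 2 genes at an unadjusted p under 0.05, against 5.13% of all tested probes. These were the renamed Zfp830 (formerly Ccdc16), with a difference of -0.75 (limma, adjusted p = 0.872), and Yju2 (formerly Ccdc94), with a difference of 0.49 (limma, adjusted p = 0.935). At Zfp830 every WD mouse, between 5.35 and 5.90, was below every SD mouse, between 6.03 and 6.66, and at Yju2 the diets overlapped. Both probes were dim, at mean levels of 5.93 and 5.91. That of Zfp830 was detected in all 6 mice, and that of Yju2 in 3 WD mice and 2 SD mice.

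The mitochondrial list had 6 of 8 genes detected at a median level of 9.47, with 4 higher and 2 lower (median 0.08), among them Ccdc90b at 9.91 ± 0.114 in SD and 10.12 ± 0.147 in WD. In the membrane traffic list 6 of 9 genes were detected at 8.98, with 3 higher and 3 lower (median 0.00). In it Ccdc47, a chaperone of membrane protein insertion, had its brightest probe at 8.35. The signalling, adhesion and secreted list had 9 of 14 genes detected at 7.71, with 5 higher and 4 lower (median 0.06), and the undetected ones were Ccdc80, Ccdc68, Ccdc69, Ccdc85a and Ccdc141. Ccdc68 is also known at centrioles and was counted in this list alone. In this list Ccdc50, an adaptor of growth factor receptor signalling, had its brighter probe at 12.27. In each of the 8 lists 0 genes passed the adjusted threshold. For comparison, the median difference over all tested probes was -0.001.

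The comparison of the diets asked which testis transcripts differ after the high-fat diet. No Ccdc probe passed the threshold, an adjusted p under 0.05 in the limma fit over all 19763 detected probes, where 0% of all tested probes were called. Among the 140 Ccdc probes the smallest adjusted p was 0.874. At an unadjusted p under 0.05 there were 3, 2 higher and 1 lower in WD, against 5.13% of all tested probes (2.56% higher and 2.57% lower). The diets did not overlap at 11 Ccdc probes (7.86%), 6 higher and 5 lower in WD, against 10.2% of all tested probes (5.17% higher and 4.98% lower). The largest difference was 0.64, and 1 probe differed by more than 1.5-fold, against 1.64% of all probes. The standard error of the difference was between 0.12 and 0.48 over the Ccdc probes, so small changes and larger ones could go uncalled. Over all tested probes the largest difference had a size of 1.08 and was not called.

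**Figure D3:**
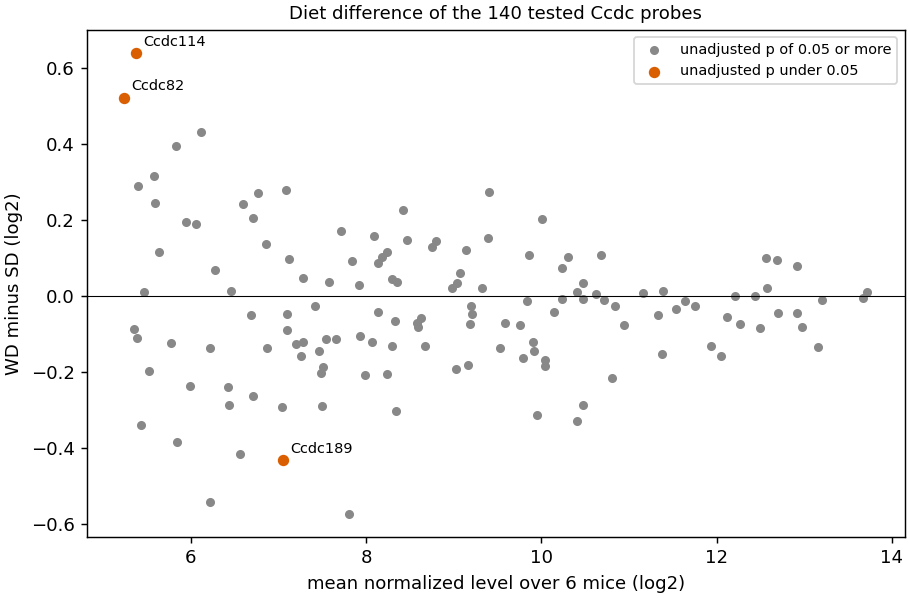
WD minus SD difference (log2) against the mean normalized level over 6 mice (log2) for the 140 tested Ccdc probes, with the 3 probes at an unadjusted p under 0.05 in orange and named. Ccdc82 and Ccdc114 lie at the dim end at 0.52 and 0.64 and Ccdc189 at -0.43, while the probes above a level of 12 lie between -0.16 and 0.10.

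Ccdc82 had the smallest p. Its only probe was at 5.00, 4.71 and 5.21 in SD mice 1, 2 and 5 and at 5.45, 5.62 and 5.42 in WD mice 3, 4 and 6, so that all WD mice were above all SD mice. The difference was 0.52 ± 0.16 (standard error), or 1.44-fold (limma, adjusted p = 0.874). The probe was dim and was detected in 3 WD mice and 1 SD mouse, so it passed the filter through the diet in which it was higher.

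The second was a dim probe of the docking factor Ccdc114. It was at 5.02, 4.87 and 5.25 in SD mice 1, 2 and 5 and at 5.32, 5.68 and 6.07 in WD mice 3, 4 and 6, a difference of 0.64, or 1.56-fold (limma, adjusted p = 0.88), and was detected in 2 WD mice and 1 SD mouse. The brightest probe of Ccdc114 was at 10.13, 10.25 and 10.20 in SD and at 10.21, 10.40 and 10.20 in WD, a difference of 0.07, and the remaining probe had a difference of -0.13. Of the 3 probes only the dimmest, not above background in 3 of the 6 mice, separated the diets.

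The third was the dimmer probe of Ccdc189, a protein of the sperm flagellum. It was at 7.03, 7.30 and 7.46 in SD mice 1, 2 and 5 and at 6.51, 6.99 and 6.99 in WD mice 3, 4 and 6, a difference of -0.43 (limma, adjusted p = 0.935). The brighter probe was at 12, 11.99 and 11.98 in SD and at 11.71, 12.01 and 11.86 in WD, with a difference of -0.13. The diets overlapped at the brighter probe and not at the dimmer one.

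The next probes by p did not reach an unadjusted p of 0.05. Higher in WD were those of Ccdc163 (9.26 ± 0.101 in SD and 9.53 ± 0.122 in WD), the dimmer tested probe of Ccdc59 (6.63 ± 0.164 and 6.90 ± 0.145), Ccdc184, Ccdc28a, Ccdc90b, Ccdc120, Ccdc28b and Ccdc84, with differences between 0.20 and 0.39. At these probes of Ccdc163 and of Ccdc59, a nucleolar factor, all WD mice were above all SD mice. The probe of Ccdc28a was dim (5.40) and was detected in 3 WD mice and 1 SD mouse, and the brighter probe of the gene had a difference of -0.15. The dimmer tested probe of Ccdc28b had a difference of -0.14. Ccdc184, Ccdc120 and Ccdc84 were detected in 3 WD mice and 2 SD mice. Lower in WD were those of Ccdc175 (8.08 ± 0.465 and 7.51 ± 0.293), Ccdc169 (6.77 ± 0.200 and 6.35 ± 0.321), Ccdc157 (8.49 ± 0.156 and 8.19 ± 0.119), Ccdc144b (10.10 ± 0.122 and 9.79 ± 0.180), Ccdc171, Ccdc33, Ccdc88b, Ccdc39 and Ccdc18, with differences between -0.57 and -0.21. At these probes of Ccdc169, Ccdc157, Ccdc144b and Ccdc18 all WD mice were below all SD mice. Several of these genes had a brighter probe with a smaller difference. It was -0.18 at the brighter probe of Ccdc175, -0.06 at that of Ccdc169, -0.07 at the brightest of Ccdc171 and -0.03 at the brightest of Ccdc39. The dimmer tested probes of Ccdc157, Ccdc144b, Ccdc33 and Ccdc18 had differences of -0.04, -0.13, -0.12 and -0.16.

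Counted over the 140 tested probes, 56 were higher and 84 lower in WD, so that 40% were higher, against 49.8% higher and 50.2% lower of all tested probes. The median difference was -0.039, against -0.001 over all tested probes. Of the 140, 13 were not detected on all 6 arrays and so could have passed the filter through 1 diet. Over all 202 probes, with no filter, the median was -0.027. The median of each mouse relative to the SD mean was 0.022, -0.013 and 0.007 for SD mice 1, 2 and 5 and was -0.066, 0.024 and -0.019 for WD mice 3, 4 and 6. The value of WD mouse 4 was the highest of the 6, so that the diets overlapped. The median difference was -0.017 without WD mouse 3 and -0.013 without SD mouse 1. The share higher in WD was 37.5% for the 80 tested Spata and Tex probes, 38.2% for the 55 of dyneins, tektins and Cfap proteins and 37.8% for the 45 of kinesins.

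Cell type markers were measured beside these values. Spermatid markers were detected at 9 of 9 genes on the array, at levels from 12.36 to 15.8, and 8 of them were lower in WD. Their summed level was 127.2 to 127.6 in SD mice and 126.3 to 126.7 in WD mice. Markers of macrophages were detected at 10 of 10 genes, with a summed level of 75.9 to 77.5 in SD and 78.4 to 85.4 in WD. Neither sum overlapped between the diets, and the diets also did not overlap at 10.2% of all tested probes taken singly. The median difference was -0.06 for spermatid markers and 0.42 for macrophage markers. At an unadjusted limma p under 0.05 there were 0 spermatid and 3 macrophage genes, against 5.13% of all tested probes. Peritubular markers, of which 2 of 4 were detected, summed to 27.2 to 27.8 in SD and 28.2 to 28.6 in WD, again without overlap. Sums were taken over all genes of a list on the array, also undetected ones, here Cnn1 and Tagln. Sertoli markers summed to 65.7 to 66.2 in SD and 65.6 to 69.1 in WD, and Leydig markers to 63.6 to 64.2 and 63.6 to 67.3. Spermatocyte markers, of which 7 of 8 were detected, summed to 71.3 to 73.9 in SD and 71.2 to 73.0 in WD. Of the 7, 6 were lower and 1 higher in WD. Spermatogonia markers, of which 5 of 7 were detected, summed to 45.7 to 46.6 in SD and 45.7 to 47.7 in WD. The spermatocyte and spermatogonia sums overlapped between the diets. WD mouse 3, which had the lowest Ccdc median, stood apart in the macrophage, Leydig and Sertoli markers. Its median deviation from the SD mean was 1.013 for macrophage, 0.556 for Leydig and 0.373 for Sertoli markers, while WD mice 4 and 6 had 0.253 and 0.134 for macrophage, -0.009 and 0.005 for Leydig and 0.098 and -0.037 for Sertoli markers. For peritubular markers the deviation was 0.465, 0.535 and 0.484 in WD mice 3, 4 and 6. In the same order it was -0.123, -0.026 and -0.056 for spermatid markers and -0.248, -0.194 and 0.039 for spermatocyte markers. For spermatogonia markers it was 0.401, -0.105 and 0.276. The part of these cell types in the Ccdc values was not tested. Of the 5 markers of epididymis and efferent duct, the latter with motile cilia of its own, 1 was detected, at a level of 11.52. Lcn5 and Lcn9 were undetected in every mouse. Whether duct tissue added to the Ccdc values was not tested.

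Different probes of a gene mostly gave the same sign. In 35 genes at least 2 probes were tested, and in 27 of these the diet difference had the same sign at each probe. The exceptions were Ccdc114, Ccdc124, Ccdc171, Ccdc27, Ccdc28a, Ccdc28b, Ccdc58 and Ccdc65. Probes of 1 gene share their RNA and array, so they do not count as replicates.

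The spread between mice was of the size seen over all probes. The median tested Ccdc probe had a standard deviation within diets of 0.191, against 0.206 for all tested probes. The lowest was 0.0291 at the brighter probe of Ccdc58, a mitochondrial protein, and the highest was 0.81 at Ccdc138, which was at 6.35, 6.31 and 6.82 in SD mice 1, 2 and 5 and at 4.73, 6.21 and 6.91 in WD mice 3, 4 and 6. The value of WD mouse 3, in which this probe was not detected, was far below the others. Over the 140 probes the Pearson correlation between mice, given as a description, was highest for SD mouse 5 and WD mouse 6 (0.994) and lowest for WD mice 3 and 6 (0.980).

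SD mouse 5 and WD mouse 6, whose descriptions in the labels carry no number and whose arrays had the lowest raw medians (126.2 and 120.1, against 146.6 to 172.5), were compared with the other 4 mice. In a fit with diet as a second term, 18 of the 140 Ccdc probes differed between this pair and the other mice at an unadjusted limma p under 0.05, 12 higher and 6 lower in the pair, against 11.1% of all tested probes (5.65% higher and 5.44% lower). After adjustment 0 of all tested probes passed (0%). The median size of the difference was 0.156 over the Ccdc probes and 0.16 over all tested probes, so that the pair differed in the Ccdc probes about as much as on the whole array. The smallest p was that of Ccdc42, with 10.92 and 11.03 in the pair and a mean of 10.13 ± 0.227 in the other 4 mice, a difference of 0.84 (limma, adjusted p = 0.305). Ccdc59, Ccdc77 and Ccdc40 were 0.54, 0.50 and 0.49 higher in the pair. At their brighter or only probe, Ccdc169, Ccdc175 and Ccdc183 had differences of -0.58, -0.60 and -0.46. The dimmer probes of Ccdc169 and Ccdc175 had the opposite sign, at 0.30 and 0.18, and the dimmer tested probe of Ccdc59 was at 0.01. Each diet has 1 mouse of the pair, so that a block for the pair leaves every diet difference as it was.

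**Figure D4:**
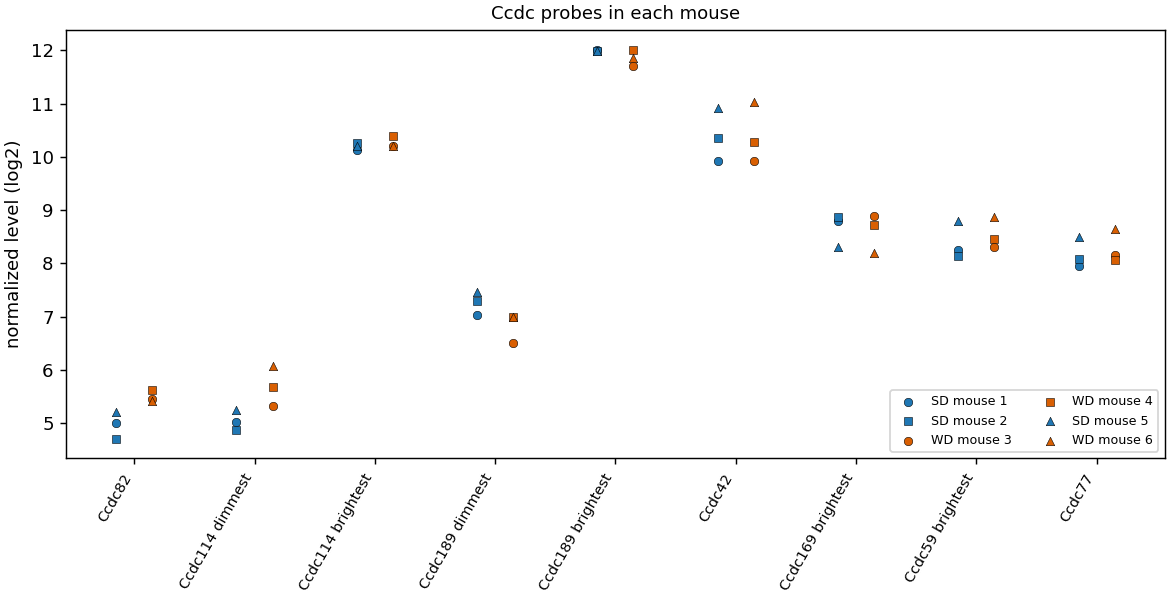
Normalized log2 level in each mouse, blue for SD and orange for WD. Shown are the probes with the smallest p between diets (Ccdc82, Ccdc114 and Ccdc189, with their brightest probes). Ccdc42, Ccdc169, Ccdc59 and Ccdc77 are shown for a small p between mice 5 and 6 (triangles) and the rest. Ccdc175, with a smaller p than Ccdc77 in that comparison, is not shown. At Ccdc42, Ccdc59 and Ccdc77 both triangles are the highest points, at Ccdc169 the lowest, and at Ccdc114 the brightest probe shows no gap between the diets.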

How the data were processed

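Per the file headers, the deposited table holds 1 bead intensity per probe and array, exported from GenomeStudio (version not given in the sources used here), with no background subtraction or scaling. Its deposited detection columns rise with intensity, so this score was taken as 1 minus a detection p. The log2 values deposited by the authors were the log2 intensities after subtraction of each array's upper quartile and of 1 value per probe, of unknown origin, within a standard deviation of 0.000152 over arrays. Their medians were -0.01725, -0.05636 and 0.001854 for SD mice 1, 2 and 5 and were -0.01196, 0 and 0.007596 for WD mice 3, 4 and 6. Scale and direction are settled. Neither the background subtraction nor the Robust Microarray Analysis that the methods name was visible, so these values served as an alternative.

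The function neqc (limma 3.58.1, R 4.3.3, offset of 16) corrected the background and normalized the arrays by quantiles. Probes with a detection p under 0.05 on at least 3 of 6 arrays were tested (19763 of 45281) with lmFit and eBayes, WD minus SD, with Benjamini-Hochberg adjustment over all of them. The procedure was tested on simulated data with changes larger than any diet difference found here, so the recovery of smaller ones was not tested. Nothing says whether mice shared a litter or cage, and p-values measure the spread between these 6 mice, whose number limits precision. Gene symbols came from the platform annotation, where 18 probes had several and 10378 none. All 202 Ccdc probes matched the gene table of GRCm38.p6 by Entrez number, which changed 0 symbols, and it gave 45 further genes with Ccdc as an older name. The files name no build, so no positions were taken from them, and those of the promoter windows are RefSeq's. A gene in a role or marker list was represented by its brightest probe. Named genes were the 10 brightest, the 10 with the smallest p in each direction, the tested axoneme, sperm head and meiosis genes, those with several tested probes and those with the highest and lowest spread. Other genes, such as list members given as examples, undetected genes and those that differed in mice 5 and 6, were named after their values were seen. The members and lists were chosen with earlier results of these data known. Ccdc7a and Ccdc7b are related copies whose probes may share signal.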

Additional observations from a re-analysis of the deposited data

How the results depend on the processing

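No paired analysis was possible because no mouse number of the titles occurs in both diets. In all alternatives 0 Ccdc probes passed the adjusted threshold, and the 20 genes named for small p kept their direction, which their selection largely fixed. The number of Ccdc probes at an unadjusted p under 0.05 was 3 in the fit reported, against 1013 of all 19763 tested probes. It was 7 with no background correction (981 of all), 5 with normexp on the intensities (988), 7 with median scaling (1074) and 6 with the deposited log2 values (1131). With no filter it was 6, against 2213 of 45281, and with the variance trend 5, against 995. It was 1 with 1 probe per gene and 5 with older names included (chosen after seeing the data). Without mice 5 and 6 it was 7 of 140, against 1672 of 19850. When 1 mouse was left out it was 3 to 11 (718 to 1531 of all). The 11 of 139 were without WD mouse 6, against 1531 of 19100. The median difference was -0.094 with median scaling, where that of all probes was -0.048. The share higher in WD was 30.7% with this scaling, against 40.3% of all tested probes. With the deposited values this share was 32.9%, against 45.0%. The median difference was between -0.053 and -0.013 with 1 mouse left out.

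The median of the axoneme list was -0.098 with median scaling, -0.098 with the deposited values and 0.007 without mice 5 and 6, and with 1 mouse left out it ran from -0.06 to 0.034, positive without WD mouse 3 (0.031) or SD mouse 5 (0.034). That of the sperm head list was -0.134 without mice 5 and 6 and ran from -0.116 to 0.018 with 1 mouse left out, positive without SD mouse 1 (0.018). That of the centrosome list was -0.132 with median scaling and -0.089 with the deposited values and ran from -0.122 to -0.003. That of the splicing list ran from -0.011 to 0.102, negative without SD mouse 2 (-0.011) or WD mouse 6 (-0.006), and was -0.02 with median scaling, -0.001 with the deposited values and -0.006 with detection on all 6 arrays. The mitochondrial list gave 0.032 with median scaling, 0.029 with the deposited values, 0.144 with each stricter filter and -0.05 with no filter. The membrane traffic list gave -0.072 and -0.065 with median scaling and the deposited values. The signalling list gave -0.074 with detection on all 6 arrays and ran from -0.05 to 0.096 with 1 mouse left out, negative without WD mouse 4 (-0.05) or SD mouse 1 (-0.007) and also at a detection p under 0.01 (-0.007). The cause of these shifts was not tested. The share of Ccdc probes detected was 64.85% at a detection p under 0.01, 62.87% on all 6 arrays and 75.74% on at least 1 array. The median rank was 60.32 among detected probes by normalized level and 76.25 with older names included.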
